A study of Mus musculus with 8 samples.

Results

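The 5 genes *Fzd4*, *Lrp5*, *Lrp6*, *Tspan12* and *Ndp*, which encode the receptor complex for the secreted protein Norrin and Norrin itself, were followed in RNA-seq of tumor-associated endothelial cells (TECs). They were found by gene symbol and are 5 of the 33641 symbols measured. CD45-CD31+ cells, that is cells with the endothelial surface protein CD31 and without the leukocyte protein CD45, had been FACS-sorted from microdissected lung tumors. The tumors came from Lewis lung carcinoma (LLC) cells, a mouse lung cancer line, injected into the left lung of mice 21 days earlier. TPM relate the reads of a gene to its length and to the library total, so levels can be compared between genes within a library. Between libraries they are shares of a fixed total, and a share also moves when the other transcripts change.

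There were 4 control libraries (C1 to C4) and 4 endFoxf1+/- libraries (H1 to H4). In the endFoxf1+/- mice (*Pdgfb-CreER*;*Foxf1* fl/+), tamoxifen activates a Cre recombinase that the *Pdgfb* promoter drives in endothelium, which removes exon 1 from 1 of the alleles of *Foxf1*, a forkhead transcription factor gene of lung endothelium. The control genotype is described in more than one way, as littermates with the floxed allele alone or as littermates with either that allele or the Cre alone. Controls received tamoxifen too. The mice were 6 to 8 weeks old at tamoxifen treatment and at tumor cell injection. The labels do not say whether each library is 1 mouse, so the tests measure the spread between these libraries.

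Norrin, the product of *Ndp*, is not a Wnt protein, but it binds Frizzled-4 and starts the same β-catenin signal. Frizzled-4, a receptor with a helical bundle in the membrane, needs a co-receptor, LRP5 or LRP6, and the tetraspanin TSPAN12 strengthens the response to Norrin. The pathway is known best from the retina and the brain, where it directs vessel growth and the blood-retina and blood-brain barriers. Human mutations in *FZD4*, *LRP5*, *TSPAN12* and *NDP* cause retinal vessel disease.

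*Fzd4* lies at chr7:89404355-89413134 on the plus strand (GRCm38, GENCODE annotation), with 2 exons and 1 annotated transcript. *Tspan12* lies at chr6:21771395-21852515 on the minus strand. Their gene starts are shown because both genes were low in the same endFoxf1+/- library. The sequences are from RefSeq's GRCm38.p6 annotation, and capitals mark each match, on either strand, of GGGCGG (the GC box) or TATAAA (the TATA box). The *Fzd4* stretch, chr7:89404223-89404354 on the plus strand, ends just before the first annotated *Fzd4* exon and starts just after the first exon of *Tmem135*, which is transcribed the other way. The *Tspan12* stretch is chr6:21852534-21852783 on the minus strand and overlaps an exon of the antisense gene *Gm30270*.
Fzd4 promoter: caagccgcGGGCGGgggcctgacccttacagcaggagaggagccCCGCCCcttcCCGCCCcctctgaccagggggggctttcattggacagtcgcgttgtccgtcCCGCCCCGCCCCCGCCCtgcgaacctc
Tspan12 promoter: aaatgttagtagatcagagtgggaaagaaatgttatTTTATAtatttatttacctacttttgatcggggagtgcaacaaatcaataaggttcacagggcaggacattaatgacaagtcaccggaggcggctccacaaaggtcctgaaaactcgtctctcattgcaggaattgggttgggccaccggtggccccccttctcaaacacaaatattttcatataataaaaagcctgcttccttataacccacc

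The starts of *Fzd4* and *Tspan12* have little in common. Of the 250 bases before the RefSeq start, 72.8% were G or C in *Fzd4* and 42% in *Tspan12*, beside a median of 52.4% over 32851 promoters. The *Fzd4* window held 25 CpG dinucleotides and the *Tspan12* window 5, beside a median of 6. The GC box, which 32.7% of promoters hold, was found 7 times in the *Fzd4* window and 0 times in that of *Tspan12*. The forkhead core TAAACA, held by 12% of promoters, the TCF and LEF core CTTTGAT (3.21%) and the ETS core CCGGAAGT (2.88%) had no match in either. A TATAAA match, found in 12.4% of promoters, was in the *Tspan12* window, on the opposite strand, 214 bases before the start. These are matches of letters and not shown to be sites.

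The study built a reporter from DNA beyond the coding sequence of *Fzd4*, so the 3' untranslated part of exon 2 (chr7:89408361-89413134) was read for the same forkhead core. It held 5 matches on both strands together. Among 903 genes whose 3' untranslated part is at least as long, the median over the same length was 4, and 47.1% had 5 or more. This count covers the whole 3' untranslated part and not the shorter element of the reporter, so it gives no background for that element. For the element, the paper reports FOXF1 binding by ChIP-seq in a mouse endothelial line. It also reports that FOXF1 activated the reporter less when some of the binding sites were disrupted. The 3 matches nearest the coding sequence lie within a short distance of each other and are shown, with the core, on either strand, in capitals (plus strand of GRCm38).
Match at chr7:89408765-89408790: aagtgatctaTAAACActggaaatgc
Match at chr7:89408829-89408854: tggtctaacaTAAACAtcttctggcc
Match at chr7:89408857-89408882: cactgtctgcTGTTTAgaactctgta

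*Foxf1*, the targeted gene, is given first. Its TPM was 213, 285, 296 and 331 in C1 to C4 and 177, 203, 14.04 and 105 in H1 to H4. Every endFoxf1+/- library was below every control library (log2 difference -1.68, exact permutation p = 0.0286, the smallest that 4 against 4 libraries can give; limma adjusted p = 0.790). Without H3 the difference was -0.83. Relative to endothelial transcripts, that is log2(TPM + 1) minus the mean of 20 endothelial markers in the same library, *Foxf1* was at -1.14, -0.68, -0.38 and -0.53 in C1 to C4 and at -1.45, -1.30, -0.86 and -1.33 in H1 to H4. H1, H2 and H4 were below all controls on this scale and H3 was not (difference -0.55, exact permutation p = 0.0571; limma unadjusted p = 0.385). At 4.99% of its control mean, *Foxf1* in H3 was within the range of those markers, so it does not check the label of H3 on its own. TPM over the whole gene includes exon 2, which the deletion leaves in place.

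H3 stood apart from the other 7 libraries. Its endothelial level, the geometric mean of 20 endothelial markers, was 6.09% of the control mean, and that of H4 was 59.7%, beside 85.9% to 111% in the other 6. The 10 myeloid markers all had a difference above 0, with H3 and without it, and a median of 1291% of the control mean in H3. Their sum, most of it *Lyz2*, was 8764 TPM in H3 and 1863 to 4668 in H1, H2 and H4, beside 1457 to 5112 in controls. The other 9 without *Lyz2*, a sum taken after the values were seen, came to 207, 281, 1894 and 192 TPM in H1 to H4, each above the 56.8 to 173 of controls. *Ptprc*, which encodes the sorted-out protein CD45, reached 91.2 TPM in H3 and 2.94 to 16.5 in the rest. The 10 fibroblast and pericyte markers summed to 197, 127, 1346 and 313 TPM in H1 to H4, beside 73.9 to 145 in controls. Most of the sum in H3 was the matrix genes *Col3a1* (556 TPM) and *Dcn* (533 TPM), whereas the pericyte gene *Rgs5* was at 0.602 TPM there and below all controls in each endFoxf1+/- library (log2 difference -2.00, limma unadjusted p = 0.00154, adjusted p = 0.790). Of these 10 markers, 3 were lower and 7 higher by the sign of the difference. The 10 epithelial markers summed to 1631 TPM in H3 and 2604 in H2, below the 6956 to 32720 of controls. The 9 erythroid and platelet markers were below the 1044 to 2099 TPM of controls in all 4 endFoxf1+/- libraries, with 429 in H3 and 698 to 1006 in the others. The 8 proliferation genes summed to 309, 282 and 496 TPM in H1, H2 and H3, above the 204 to 231 of controls, and to 207 in H4. The 10 lymphocyte markers summed to 68.4 TPM in H3, above the 20.2 to 30.6 of controls, and the 7 lymphatic endothelial markers to 76.9, below their 447 to 703. No endothelial, myeloid, fibroblast or pericyte marker was at 0 in any library. In bulk RNA, fewer endothelial cells and less RNA of a gene per endothelial cell cannot be told apart.

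*Fzd4* was among the clearly expressed genes in every library but H3. Its TPM was 95.2, 100.5, 77.0 and 94.7 in C1 to C4 (mean 91.9 ± 10.3, SD, n = 4). It was 86.6, 94.5, 6.68 and 66.8 in H1 to H4 (63.7 ± 39.7, n = 4). H1 and H2 lay within the control range, H4 below it, and H3 at 7.27% of the control mean. The difference of -1.02 on the log2(TPM + 1) scale (SE 0.71, 95% interval -2.62 to 0.58) did not pass limma's test (adjusted p = 0.790) or the exact permutation test (p = 0.171). Without H3 the difference was -0.16.

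*Tspan12* followed the same course. Its TPM was 90.7, 101, 102 and 118 in controls (103 ± 11.3, n = 4) and 96.7, 93.2, 4.86 and 82.3 in endFoxf1+/- libraries (69.3 ± 43.4, n = 4). Again H1 and H2 fell inside the control range and H4 below it, and H3 held 4.72% of the control mean. The log2 difference was -1.17 (SE 0.81, 95% interval -2.99 to 0.66, limma adjusted p = 0.790; exact permutation p = 0.0857), and -0.18 without H3. *Gm30270* also overlaps the first exon of *Tspan12*, and the library kit does not mark strand.

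The LRP co-receptors kept more of their level in H3. *Lrp5* (chr19:3584828-3686564) had 63.5, 49.7, 45.2 and 50.9 TPM in controls (52.3 ± 7.83, n = 4) and 55.3, 63.7, 14.3 and 44.2 in endFoxf1+/- libraries (44.4 ± 21.6, n = 4). H1 was inside the control range, H2 just above it and H4 just below, and H3 was at 27.3% of the control mean. Its log2 difference was -0.41 (SE 0.42, 95% interval -1.36 to 0.54, limma adjusted p = 0.809; exact permutation p = 0.629). Without H3 it was 0.05, of the opposite sign.

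*Lrp6* (chr6:134446476-134566965) varied least. It had 38.1, 42.5, 36.4 and 38.4 TPM in controls (38.9 ± 2.58, n = 4) and 34.5, 38.5, 18.7 and 43.3 in endFoxf1+/- libraries (33.7 ± 10.7, n = 4). H2 was inside the control range, H1 below it, H4 above it and H3 at 48.0% of the control mean, close to the median over all tested genes of 54.3%. The log2 difference was -0.26 (SE 0.28, 95% interval -0.88 to 0.36, limma adjusted p = 0.812; exact permutation p = 0.514), and -0.01 without H3.

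*Ndp* (chrX:16885521-16911774), the ligand gene, was barely expressed by these cells. Its TPM was 0.336, 0.347, 0.669 and 0.274 in controls and 0.649, 0.850, 0.0237 and 0.546 in endFoxf1+/- libraries, so the groups overlapped. It did not reach 1 TPM in any library and was left out of the test over all genes. The difference on the log2(TPM + 1) scale was 0.08 (exact permutation p = 0.743).

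**Figure D1:**
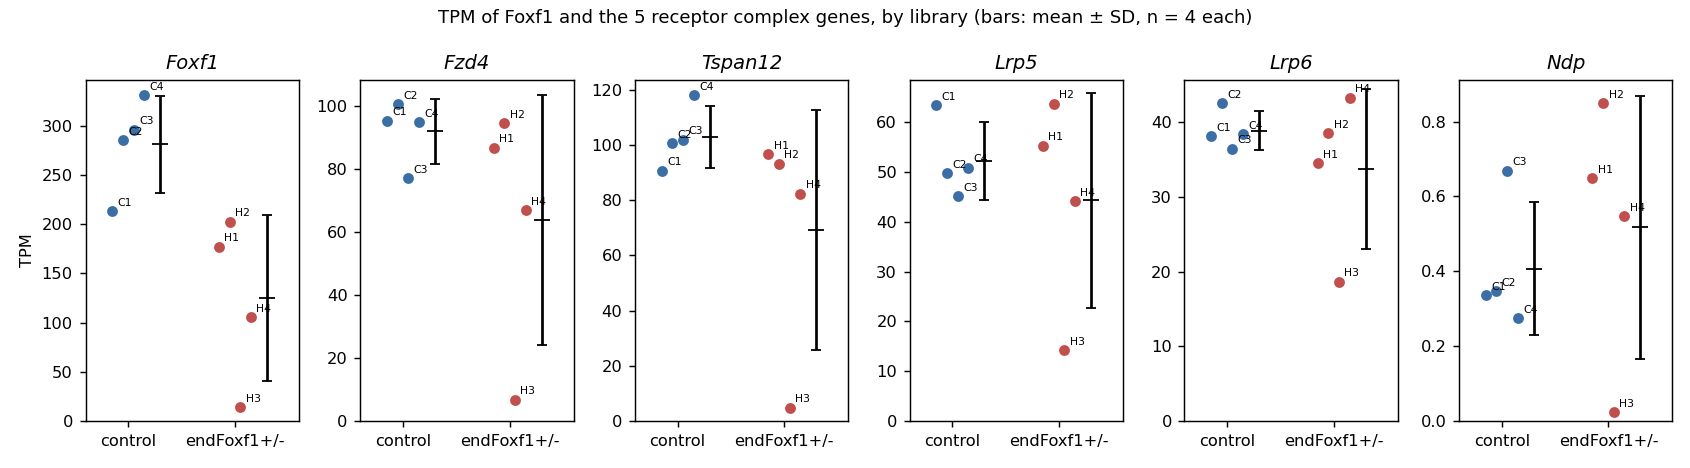
TPM of *Foxf1* and the 5 receptor complex genes in the 4 control (C1 to C4) and 4 endFoxf1+/- (H1 to H4) libraries. Each point is a library, and the bar beside each group is the mean ± SD (n = 4). *Foxf1* is lower in all 4 endFoxf1+/- libraries, whereas for the other genes the groups overlap and H3 is the lowest library.

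None of the 4 members tested was called. In limma's test over 14964 genes with Benjamini-Hochberg adjustment, 0 genes (0%) had an adjusted p under 0.05. At an unadjusted p under 0.05 there were again 0 of the 4 members, beside 2.77% of all genes lower in endFoxf1+/- TECs and 2.82% higher. The 2 groups of libraries overlapped for each of the 4 members. Over all genes, every endFoxf1+/- library was below every control for 2.31% and above for 2.73%. A log2 difference below 0, which all 4 members had, was the case for 68% of genes, with a median of -0.17. Without H3, 3 of the 4 members and 48.4% of genes were below 0.

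In H3, *Fzd4* and *Tspan12* were at less than 10% of their control mean, as 8.8% of tested genes were. The 20 endothelial markers ranged there from 3.69% to 9.58% of their control means (median 5.58%), a range that holds *Fzd4* and *Tspan12* but neither *Lrp5* nor *Lrp6*. In H4 the markers ranged from 28.5% to 120% (median 65.6%), and *Fzd4* was at 72.8%, *Tspan12* at 80.0%, *Lrp5* at 84.5% and *Lrp6* at 111%. On this scale, among the members tested, *Lrp6* kept the most in both libraries and *Lrp5* the next most. The part that other cells in H3 and H4 had in these values was not tested.

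**Figure D2:**
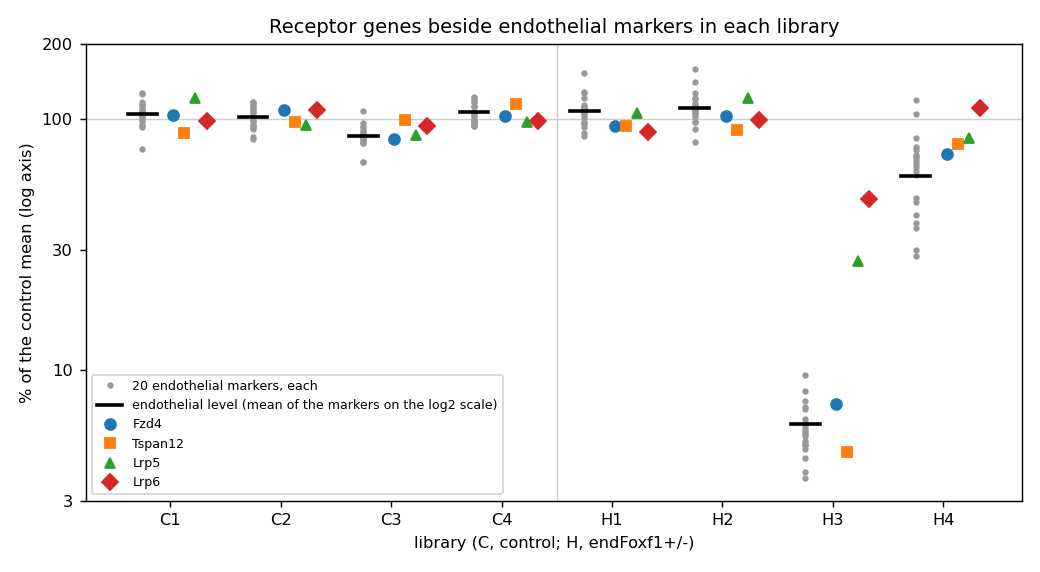
Each receptor gene (colored symbols), each of 20 endothelial markers (gray points) and the endothelial level (black line), as % of the control mean in each library, on a log axis. *Fzd4* and *Tspan12* lie with the endothelial markers in H3, while *Lrp5* at 27.3% and *Lrp6* at 48.0% lie above all of them.

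Relative to endothelial transcripts, *Fzd4* and *Tspan12* differed little between the groups. For *Fzd4* the value was -2.30, -2.18, -2.31 and -2.32 in controls and -2.47, -2.39, -1.83 and -1.98 in endFoxf1+/- libraries. H1 and H2 were thus below all controls and H3 and H4 above all of them, and the difference of the means was 0.11 (exact permutation p = 0.514). For *Tspan12* it was -2.37, -2.17, -1.91 and -2.01 in controls and -2.31, -2.41, -2.22 and -1.68 in endFoxf1+/- libraries, with a difference of -0.04 (p = 0.857 by the same exact test). The groups overlapped on this scale too.

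The co-receptors and *Ndp* had differences above 0 on this scale that did not pass the test, with the highest value in H3. *Lrp5* was between -3.20 and -2.88 in controls and at -3.11, -2.95, -0.84 and -2.57 in H1 to H4, a difference of 0.71 (exact permutation p = 0.171). *Lrp6* was between -3.60 and -3.37 in controls and at -3.77, -3.66, -0.48 and -2.60 in H1 to H4, a difference of 0.86 (exact permutation p = 0.429), so H1 and H2 were below all controls and H3 and H4 above. *Ndp* differed by 1.21 (exact permutation p = 0.114). In H3 the log2(TPM + 1) of *Ndp* was close to 0, so its value there follows from the marker level. Without H3 the differences were 0.20 for *Lrp5*, 0.15 for *Lrp6* and 0.42 for *Ndp*.

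This scale moves most genes upward, with a median over all tested genes of 0.95, so *Fzd4* (0.11) and *Tspan12* (-0.04) lay well below that median and *Lrp6* near it. Only 3.43% of genes had a difference below 0, as *Tspan12* had. By limma's test on this scale 1 gene (0.00668%) had an adjusted p under 0.05, and that was none of the members, whose adjusted p ran from 0.538 to 0.957. At an unadjusted p under 0.05, 0.0134% of genes were lower and 1.84% higher, with 0 of the 4 members in either direction. All endFoxf1+/- libraries were below all controls for 0.0802% of genes and above for 6.77%, and again for 0 of the 4 members.

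**Figure D3:**
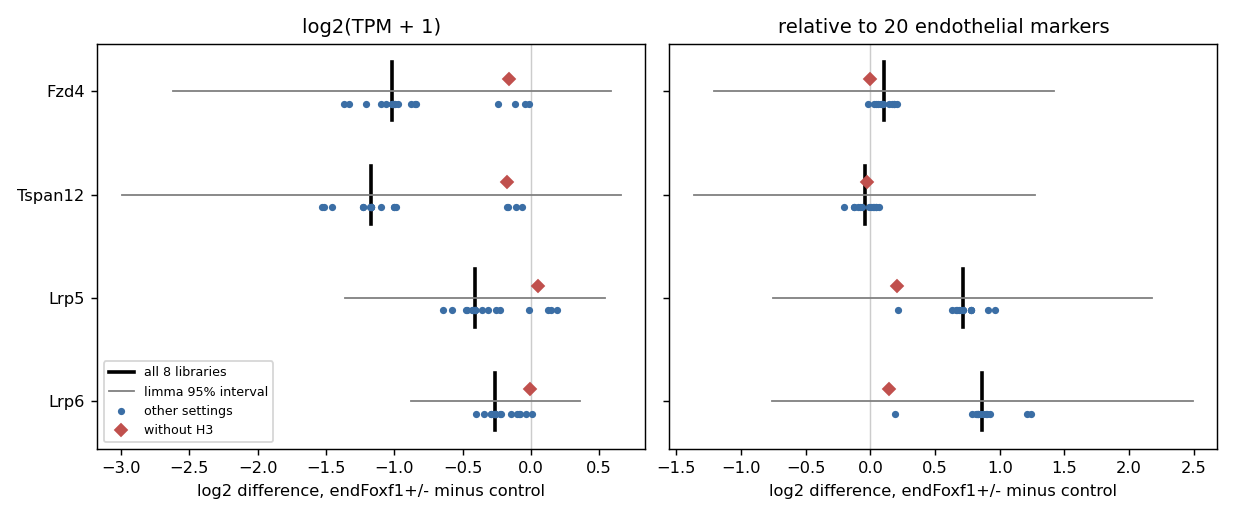
Log2 difference, endFoxf1+/- minus control, of the 4 expressed receptor genes as log2(TPM + 1) (left) and relative to 20 endothelial markers (right). Black bars are the values over all 8 libraries with limma's 95% interval in gray, red diamonds leave out H3, and blue points are the other settings tried. All intervals include 0, and without H3 the values lie near 0 on the left and between -0.03 and 0.20 on the right.

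By mean TPM over the 8 libraries the order was *Tspan12* (86.1), *Fzd4* (77.8), *Lrp5* (48.3), *Lrp6* (36.3) and *Ndp* (0.462). *Tspan12* and *Fzd4* did not differ beyond their spread (mean log2 difference 0.09, exact sign-flip p = 0.398), and *Tspan12* was the higher in 5 of 8 libraries. *Fzd4* was above *Lrp5* in 7 of 8 (0.50, exact sign-flip p = 0.0625), and *Lrp5* above *Lrp6* in 7 of 8 (0.34, exact sign-flip p = 0.0547). H3 was the exception in both. *Lrp6* was above *Ndp* in all 8 (4.66, exact sign-flip p = 0.00781, the smallest possible). In H3 the order of the first 4 was turned around, from *Lrp6* at 18.7 TPM down to *Tspan12* at 4.86.

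Ratios between members within a library do not depend on the library total. *Fzd4* to *Lrp5* was 1.50, 2.02, 1.70 and 1.86 in controls and 1.57, 1.48, 0.468 and 1.51 in endFoxf1+/- libraries. Of the latter, only H1 and H4 exceeded the lowest control. Its log2 difference of -0.61 had the smallest p of the 6 pairs compared (exact permutation p = 0.0857, not adjusted), and was -0.21 without H3. *Fzd4* to *Lrp6* was 2.50, 2.36, 2.11 and 2.47 in controls and 2.51, 2.46, 0.358 and 1.54 in endFoxf1+/- libraries (log2 difference -0.76, exact permutation p = 0.343), with H3 and H4 below all controls.

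*Tspan12* to *Lrp5* differed by -0.76 (exact permutation p = 0.171) and *Tspan12* to *Lrp6* by -0.91 (exact permutation p = 0.257), and in H3 these ratios of TPM were 0.340 and 0.260 against 1.43 or more and 2.37 or more in controls. *Tspan12* to *Fzd4* ran from 0.953 to 1.33 in controls and from 0.727 to 1.23 in endFoxf1+/- libraries (-0.15, exact permutation p = 0.457). *Lrp5* to *Lrp6* ran from 1.17 to 1.67 and from 0.764 to 1.66 (-0.15, exact permutation p = 0.629). None of the 6 pairs passed 0.05.

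Genes whose profile over the 8 libraries was most like that of each member were sought among 8829 other genes with a mean of at least 10 TPM, by the root mean square difference of their mean-centered log2(TPM + 1). For *Fzd4* these were *Shank3* (0.10), *Flt1*, a VEGF receptor gene (0.10), *Rbpms* (0.11), *C130074G19Rik* (0.12) and *Gimap8* (0.12). For *Tspan12* they were the transcription factor gene *Tbx3* (0.09), the ion channel gene *Piezo2* (0.12), *Tmod2* (0.14), *Cdh5*, which encodes VE-cadherin (0.14), and *Ccdc68* (0.14). In H3 these 10 genes were at 4.55% to 8.41% of their control means.

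For *Lrp5* the genes most alike included *Herc2* (0.07), *Rab11a* (0.07), *Nsd1* (0.08) and *Crebzf* (0.08), at 23.7% to 31.2% of control in H3. For *Lrp6* they were *Specc1l* (0.08), *Gpbp1l1* (0.08), *Fam222b* (0.09), *Ndrg3* (0.09) and *Zc3h7b* (0.09), at 39.6% to 47.2%. Of the members, *Tspan12* ranked 142 in likeness to *Fzd4*, *Lrp5* 1085 and *Lrp6* 2952, and *Foxf1* ranked 560. These likenesses rest on H3. Over the other 7 libraries *Lrp5* ranked 947 in likeness to *Fzd4*, *Tspan12* 1353, *Lrp6* 3155 and *Foxf1* 6990, and the 5 nearest genes shared 0 names with these for *Fzd4*, *Tspan12* and *Lrp6*.

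Among the ligands and R-spondins, secreted proteins that keep Frizzled receptors at the cell surface, 3 of 12 were expressed enough to test. *Rspo3*, an R-spondin gene of endothelium, had 6.09, 6.06, 7.48 and 7.62 TPM in controls and 2.20, 3.62, 0.291 and 2.92 in endFoxf1+/- libraries. All 4 of the latter were below all controls (log2 difference -1.40, limma unadjusted p = 0.00606, adjusted p = 0.790). The difference was -1.01 without H3. Relative to endothelial transcripts it was -0.28 with overlap (exact permutation p = 0.714), and -0.85 without H3, with H1, H2 and H4 below all controls. In H3, at 0.291 TPM, the relative value of *Rspo3* follows largely from the marker level. The other 2 tested, *Wnt2b* and *Rspo1*, overlapped between groups (-0.34 and -0.36; -0.022 and -0.25 without H3). *Wnt7b*, whose protein signals through Frizzled-4 in brain vessels with other partners, reached 7.64 TPM in H3 and 0.06 to 0.73 elsewhere.

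*Fzd4* was the highest of the 10 Frizzled genes in all 8 libraries. *Fzd6* was next in 7 of them, with 23.1, 24.4, 19.1 and 20.4 TPM in controls and 26.3, 33.5, 1.65 and 15.4 in endFoxf1+/- libraries (log2 difference -0.67, limma adjusted p = 0.809). Its difference was 0.14 without H3, where that of *Fzd4* was -0.16. The ratio of *Fzd4* to *Fzd6* was 4.02 to 4.64 in controls and 3.29, 2.82, 4.05 and 4.34 in H1 to H4, so H3, with few endothelial transcripts, had a ratio like that of the controls, and H1 and H2 had the low ones. Relative to endothelial transcripts, *Fzd6* was above all controls in each endFoxf1+/- library (0.45, exact permutation p = 0.0286), as 6.77% of genes were. Of the 7 Frizzled genes tested, counted by the sign of the log2 difference alone as in the lists that follow, 5 were lower and 2 higher (4 and 3 without H3), with 0 called and a median of -0.42 (-0.02 without H3), beside -0.17 (0.01) over all genes. *Fzd1* (0.09) and *Fzd7* (0.30) were the 2 above 0, and *Fzd3* (-0.46), *Fzd5* (-0.21) and *Fzd8* (-0.42) were below it. Without H3 *Fzd1* was at 0.20, *Fzd3* at -0.088, *Fzd5* at -0.030 and *Fzd8* at -0.018. *Fzd2*, *Fzd9* and *Fzd10* did not exceed 0.468 TPM in any library and were not tested.

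*Fzd4* made up 70.2%, 73.1%, 68.5% and 73.5% of the summed Frizzled TPM in controls and 68.4%, 67.5%, 40.4% and 62.8% in endFoxf1+/- libraries. Each endFoxf1+/- library was thus below each control, though H1 and C3 were only 0.0515 percentage points apart. This share was computed after the values were seen and was not tested. What filled the rest differed. In H1 and H2 it was *Fzd6*, at 20.8% and 23.9% against 15.8% to 17.7% in controls. In H3 it was *Fzd7* (16.8%), *Fzd1* (16.0%) and *Fzd5* (10.3%), at 2.78, 2.64 and 1.70 TPM, with *Fzd2* at 2.84% and 0.468 TPM. *Fzd5* took 2.41% to 3.56% in controls and *Fzd2* at most 0.311%. In H4 *Fzd7* and *Fzd1* were at 5.35% and 6.24%, against at most 2.90% and 3.33% in controls.

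**Figure D4:**
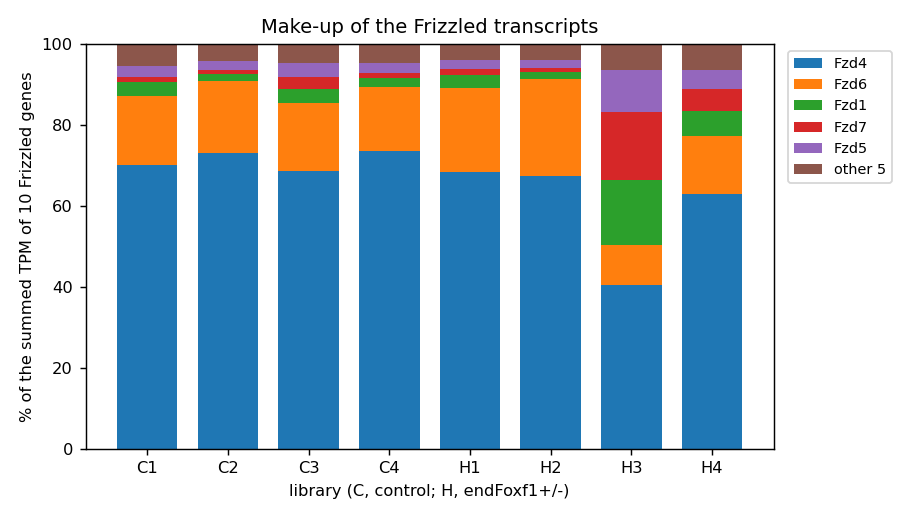
Share of each Frizzled gene in the summed TPM of 10 Frizzled genes, by library. *Fzd4* takes 68.5% or more in each control and 68.4% or less in each endFoxf1+/- library, with 40.4% in H3.

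*Lrp5* was the highest of the 13 genes of the LDL receptor family in all libraries but H3, with 25.7% to 34.1% of the family's TPM in controls, and *Lrp6* took 20.5% to 24.0%. In H3 these shares were 9.98% and 13.1%. There *Lrp1*, which encodes an endocytic receptor, had 61.7 TPM, with 37.1 in H4 and 9.11 and 8.40 in H1 and H2, all above the 3.12 to 5.02 of controls (log2 difference 2.16, limma unadjusted p = 0.00497, adjusted p = 0.790). *Lrp4*, a relative of *Lrp5* and *Lrp6*, was at 7.82% of its control mean in H3, much like *Fzd4*. Of the 10 family members tested, 5 were lower and 5 higher (3 and 7 without H3).

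*Tspan12* took 1.80% to 2.31% of the summed TPM of 27 tetraspanin genes in controls. In endFoxf1+/- libraries its share ran from 0.235% in H3 to 2.63%. The most abundant tetraspanin gene was *Tspan13* (852 TPM over 8 libraries), at 5.53% of control in H3. Of 25 tested, 16 were lower and 9 higher (12 and 13 without H3). *Tspan17* was below all controls in each endFoxf1+/- library (log2 difference -1.18, limma unadjusted p = 0.0157), and *Cd53*, a leukocyte tetraspanin gene, was above them (1.89, unadjusted p = 0.0204; 1.14 without H3). *Cd63* differed by 1.50 (unadjusted p = 0.0212; 0.99 without H3), with overlap. The adjusted p of each was 0.790.

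Of 14 other genes listed with the Wnt and Norrin co-receptors, 11 were tested, 7 lower and 4 higher (6 and 5 without H3), with 0 at an unadjusted p under 0.05. *Mcc* had the highest level (104 TPM), at 7.66% of its control mean in H3. *Reck* and *Adgra2*, which work with *Wnt7b* at Frizzled-4, had log2 differences of -0.97 and -0.25, or -0.53 and 0.016 without H3. Among 8 tested genes of receptor turnover and inhibition, 6 were lower and 2 higher (4 and 4 without H3). The higher ones over all 8 libraries were the inhibitor genes *Dkk2* (1.45, limma unadjusted p = 0.0386; 0.82 without H3) and *Apcdd1* (1.52, unadjusted p = 0.0330; 0.90 without H3), at 46.6 and 32.7 TPM in H3 against at most 5.45 and 3.07 in controls. Both had an adjusted p of 0.790 and overlapped between the groups. *Kremen1*, a DKK receptor gene and the highest of the list, differed by -0.40, or -0.14 without H3. *Znrf3*, whose product removes Frizzled receptors from the surface, differed by -0.29.

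The cytoplasmic chain from Dishevelled to the TCF and LEF factors was expressed throughout. All 20 of its genes were tested, 15 lower and 5 higher (11 and 9 without H3), with a median of -0.21. *Ctnnb1*, which encodes β-catenin, was the highest at 515 TPM and differed by 0.04, or 0.40 without H3. *Dvl2*, a Dishevelled gene, was below all controls in each endFoxf1+/- library (5.50, 4.98, 5.85 and 2.74 against 5.94 to 8.19 TPM, log2 difference -0.52, limma unadjusted p = 0.0932). *Lef1* was above all controls (3.13, 2.66, 3.06 and 3.04 against 1.60 to 2.60 TPM, 0.33, unadjusted p = 0.193). Their adjusted p was 0.790.

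Of 20 genes known to respond to Frizzled-4 and β-catenin signals in vessels, 16 were tested, 11 lower and 5 higher (9 and 7 without H3), with 0 called and a median of -0.78 (-0.05 without H3). Over all genes, 68% were lower (48.4% without H3), with a median of -0.17 (0.01 without H3). The list was not divided by whether the signal raises or lowers a gene. *Nkd2*, a feedback inhibitor gene, had 23.6, 10.6, 12.7 and 14.5 TPM in controls and 4.71, 7.29, 0.564 and 4.35 in endFoxf1+/- libraries, all below the controls (log2 difference -1.81, limma unadjusted p = 0.00522, adjusted p = 0.790; -1.31 without H3). *Cldn5*, a tight junction gene and the highest of the list, was at 998 to 1409 TPM in controls and at 949, 835, 51.0 and 228 in H1 to H4 (-1.93, unadjusted p = 0.0411, adjusted p = 0.790; -1.07 without H3). Of the 16, it was the one whose groups stayed apart relative to endothelial transcripts (-0.80, exact permutation p = 0.0286; -0.91 without H3). Limma on that scale did not call it (unadjusted p = 0.242, adjusted p = 0.538). *Nkd2* differed by -0.69 on that scale (exact permutation p = 0.257) and by -1.15 without H3, with H1, H2 and H4 below all controls and H3, at 0.564 TPM, above them.

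*Nkd1* was below all controls too (-1.43, limma unadjusted p = 0.0968; -0.50 without H3), with 105 TPM in H1 against a lowest control of 106. *Axin2*, the usual reporter of β-catenin activity, differed by -0.83, or -0.25 without H3, and overlapped. The transporter genes *Slc2a1* (1.15, unadjusted p = 0.0351; 0.68 without H3) and *Slc7a5* (1.02, unadjusted p = 0.0411) had differences above 0, with *Slc2a1* at 122 TPM in H3 and 17.7 to 23.3 in controls. *Apcdd1*, given above as an inhibitor gene, is also in this list and was higher too (1.52, limma unadjusted p = 0.0330; 0.90 without H3). The adjusted p of these genes was 0.790. *Tmem135*, which shares the gene start with *Fzd4* and was looked at after its values were seen, had 12.4 TPM in H3, 54.5% of its control mean, where *Fzd4* had 7.27%.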

How the data were processed

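RNA-seq of 8 libraries was used, and groups were taken from the labels. The authors deposited TPM per gene symbol, summing to 1000000 in each library. The submitters' notes name TopHat, Cufflinks, Subread, DESeq2, GRCm38 and mm10, but the tool behind the TPM is not given in the sources used here. TPM keep no read depth, so precision rests on the spread between libraries, and a count model (DESeq2, as named by the study) was not run.

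log2(TPM + 1) was tested with limma 3.58.1 (R 4.3.3; lmFit, eBayes with trend) on the 14964 genes that reached a TPM of 1 in 4 or more libraries, with Benjamini-Hochberg adjustment over all of them at 0.05. The code was tested on simulated data. Single values were compared by exact two-sided permutation over 70 assignments (smallest p 0.0286), neighbors in level by exact sign flips over libraries. Relative levels subtract the mean of 20 endothelial markers. The genes named were the members, all Frizzled genes, and in each pathway list the highest gene and those with an unadjusted p under 0.05 or groups apart, with the 5 genes most like each member. One gene with a profile like that of *Lrp5* is not reported here. Others named were chosen after their values were seen. The members and lists were chosen with earlier results of these data known. By symbol, 14 of 15 genes of receptor turnover were found, and all those of the other lists. Settings tried were the pseudocount, filter, scaling, weights, a covariate, the reference markers and leaving out libraries.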

Additional observations from a re-analysis of the deposited data

Results flagged for a closer look

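H3 was farther from the other 3 endFoxf1+/- libraries than Dixon's 95% limit for 4 values allows in 4 of the 34 groups of values looked at. These were the log2(TPM + 1) of *Fzd4* (2.94 in H3) and of *Tspan12* (2.55), and the log2 differences within the library of *Tspan12* minus *Lrp5* (-1.38) and of *Fzd4* minus *Lrp5* (-0.99). The groups share genes and the same library, and chance passes this limit in about 1 of 20 groups.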

How the results depend on the processing

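Leaving out 1 library at a time changed no call between the groups for a member, but H3 set the size of most differences. The log2 difference ran from -1.37 to -0.16 for *Fzd4*, -1.53 to -0.18 for *Tspan12*, -0.64 to 0.051 for *Lrp5*, -0.40 to -0.01 for *Lrp6* and -0.023 to 0.26 for *Ndp*. The value nearest 0 was that without H3 for the first 4, and the value below 0 for *Ndp* that without H2. Relative to endothelial transcripts it ran from -0.0045 to 0.21 for *Fzd4*, -0.20 to 0.040 for *Tspan12* (above 0 without C3, H1 or H2), 0.20 to 0.96 for *Lrp5*, 0.15 to 1.25 for *Lrp6* and 0.42 to 1.57 for *Ndp*. The endothelial level differed by -1.12 (exact permutation p = 0.429) and ran from -1.55 to -0.15. The pairs ran from -0.25 to -0.02 (*Tspan12* to *Fzd4*), -0.98 to -0.23 (*Tspan12* to *Lrp5*), -1.24 to -0.17 (*Tspan12* to *Lrp6*), -0.75 to -0.21 (*Fzd4* to *Lrp5*), -1.04 to -0.15 (*Fzd4* to *Lrp6*) and -0.30 to 0.059 (*Lrp5* to *Lrp6*). Without H3, *Fzd4* was above *Lrp5* by 0.71 and *Lrp5* above *Lrp6* by 0.44, both now past 0.05 (exact sign-flip p = 0.0156). Their ranges were 0.43 to 0.71 and 0.28 to 0.44, beside 0.04 to 0.15 for *Tspan12* above *Fzd4* and 4.61 to 4.71 for *Lrp6* above *Ndp*.

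Without the third library of each group, the signs turned for *Fzd4* (-0.015) and *Tspan12* (0.047) relative to endothelial transcripts, *Tspan12* to *Fzd4* (0.062) and *Lrp5* to *Lrp6* (0.023), and *Fzd4* above *Lrp5* (0.71) and *Lrp5* above *Lrp6* (0.46) passed 0.05 (exact sign-flip p = 0.0312). *Fzd4* was -0.11 with array weights and -0.040 with the endothelial level as a covariate, *Tspan12* -0.17 and -0.063. *Lrp5* was 0.15 with array weights and 0.13 with the endothelial level as a covariate, and *Lrp6* 0.0065 with the latter. *Tspan12* relative to endothelial transcripts was 0.071 with a pseudocount of 5 and 0.019 against *Cdh5* alone. Genes with an adjusted p under 0.05 numbered 148 with array weights, which gave H3 a weight of 0.0643, 1 with the covariate, and 0 to 1 with 1 library left out (1 without C1). Without both H3 and H4, a setting chosen after seeing the data, there were 2, and the differences were -0.01 for *Fzd4*, -0.11 for *Tspan12*, 0.19 for *Lrp5* and -0.09 for *Lrp6*. The causes were not tested. All other settings kept direction and side of the threshold for the members. No paired analysis was possible because the labels give no shared replicate numbers. The 95% intervals of *Fzd4* and *Tspan12* reach down to -2.62 and -2.99, so at this spread a large fall cannot be told from none.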
